A study of Mus musculus with 6 samples.

Results

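The genes described here are 10 mouse genes that code for sensors of foreign or misplaced RNA and DNA in the cell and for the adaptors, kinases and ubiquitin ligase that pass the signal on. They were taken by name, as 10 of the 23791 named genes in a table of read counts from 6 RNA sequencing libraries of RM1 mouse prostate cancer cells. All 10 were found in the table, and all 10 were among the 13832 genes that passed the filter on low counts. In the table's older symbols they are Ddx58 (RIG-I), Ifih1 (MDA5), Dhx58 (LGP2), Tlr3, Mb21d1 (cGAS), Mavs, Tmem173 (STING), Tbk1, Ikbke and Trim25.

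The libraries came from 4 groups, all of strain C57BL/6 origin. Bone is 1 library of RM1536 cells taken from the femur, and lung is 1 library of RM1536 cells taken from the lung, both from 1 mouse 16 days after injection of PKH26-stained cells into the heart. PKH26 is a membrane dye that dividing cells dilute, and the PKH-negative, proliferating cells were used. RM1536 is RM1 carrying eCFP and luc2, a pool of clones 5, 3 and 6, in culture (replicates a and b). RM1 is the unlabelled line in culture (replicates a and b). Cells of every group were sorted by FACS and grown in DMEM with 5% FBS to 85% confluency before RNA was taken, so bone and lung are regrown cultures and not tissue. Bone and lung stand for 1 library each. Nothing in the labels tells separate cultures from repeat preparations in a and b, so the p-values measure the spread of those duplicates alone, which may be technical. Library totals lay between 22765606 and 30305793 counts. The epithelial keratin gene Krt8 was at 966.1 to 2366 CPM (counts scaled to a common library total) in all 6 libraries. Of 12 leukocyte markers, the pan-leukocyte gene Ptprc had 0 reads in bone and lung and at most 2 in any culture library. The 12 markers summed to 25.6 CPM in bone, 24.3 in lung, 11.9 and 4.14 in RM1536 and 11.4 and 45.5 in RM1, most of it from Cd68 in every library. Without Cd68 the sums were higher in bone (5.93 CPM) and lung (4.10) than in RM1536 (0.684 and 0.550) and RM1 (1.80 and 1.95). Lyz2 was at 2.68 CPM in bone and 2.88 in lung, with 0 reads in the culture libraries. Of the 4 markers that passed the filter, 1 was called: Laptm5, a lysosomal membrane protein gene of blood cells, fell in RM1536 against RM1 (log2 -3.21 ± 0.56, edgeR adjusted p = 0.0343), as some of the sensing genes did. It stood at 2.41 CPM in bone, 0.276 in lung, 0.241 and 0.129 in RM1536 and 1.54 and 1.91 in RM1. Its call was lost without any 1 of the culture libraries (adjusted p of at most 0.144), and in bone against RM1536 its log2 fold change was 3.70 ± 0.62 (adjusted p = 0.120). The part of these markers in the results was not tested.

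RIG-I and MDA5 are helicases that bind viral RNA in the cytosol, and both signal through MAVS, an adaptor on mitochondria. LGP2 is a related helicase that lacks the signalling domains and tunes the other two. TLR3 recognises double-stranded RNA in endosomes, while cGAS recognises DNA in the cytosol and makes a cyclic dinucleotide that activates STING on the endoplasmic reticulum. These routes meet at the kinases TBK1 and IKKε (the product of Ikbke), which activate IRF3 and so interferon genes. Several of the RNA sensors are themselves induced by interferon.

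Because interferon-induced promoters commonly carry the interferon-stimulated response element, the core of that element, 2 copies of GAAA with any 2 bases between them, was searched on both strands (on the opposite strand it reads as 2 copies of TTTC) in windows from 250 bases before to 50 after each transcription start (RefSeq, GRCm38.p6). Windows were matched for 8 of the 10 genes, Mb21d1 under its newer name Cgas. The match was found in 2 of them, Ddx58 and Ifih1, against 3.44% of all 32851 windows. In Ddx58 it lay on the opposite strand at bases 3 to 12 after the start, and in Ifih1 on the gene's strand at bases 33 to 42. The 30 bases around each match are shown 5′ to 3′ on the gene's strand, with the matched letters in capitals (Ddx58 at chr4:40239804-40239833, Ifih1 at chr2:62646206-62646235, both minus strand).
Ddx58: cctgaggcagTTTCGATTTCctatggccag
Ifih1: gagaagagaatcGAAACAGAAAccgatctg

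The 250 bases before the start are shown for these genes and, for contrast, for Tlr3, which fell in RM1536 cells with no match in its window, and Mavs, which did not pass the test and has none. The Tlr3 window follows the RefSeq start and lies inside the gene's GENCODE M21 span, which reaches 45411080. Its lack of a match holds for the RefSeq start alone, and the bases before the GENCODE start were not searched. A variant with 1 base between the 2 copies of GAAA, also on both strands, was added after the sequences were seen; the match in Ddx58 does not overlap the one after its start. It was found in 1 of the 8 windows, Ddx58, at bases 60 to 52 before the start, shown in capitals, and in 3.17% of all windows. A match describes letters only, and no factor binding was measured. The windows are at chr4:40239826-40240075, chr2:62646256-62646505 and chr8:45410381-45410630 on the minus strand and chr2:131233813-131234062 on the plus strand.
Ddx58: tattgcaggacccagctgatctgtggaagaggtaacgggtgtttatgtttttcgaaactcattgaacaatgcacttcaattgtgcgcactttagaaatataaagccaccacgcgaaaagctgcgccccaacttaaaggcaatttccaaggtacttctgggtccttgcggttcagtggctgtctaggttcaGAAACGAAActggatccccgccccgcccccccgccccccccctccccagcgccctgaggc
Ifih1: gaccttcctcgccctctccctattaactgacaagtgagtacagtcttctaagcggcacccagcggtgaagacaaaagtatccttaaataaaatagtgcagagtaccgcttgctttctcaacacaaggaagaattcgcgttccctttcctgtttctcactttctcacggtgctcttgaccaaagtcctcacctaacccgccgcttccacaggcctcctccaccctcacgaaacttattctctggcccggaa
Tlr3: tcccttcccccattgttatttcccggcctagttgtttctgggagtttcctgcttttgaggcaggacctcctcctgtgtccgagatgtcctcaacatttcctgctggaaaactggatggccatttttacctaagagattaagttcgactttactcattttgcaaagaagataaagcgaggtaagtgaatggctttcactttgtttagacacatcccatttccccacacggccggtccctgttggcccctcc
Mavs: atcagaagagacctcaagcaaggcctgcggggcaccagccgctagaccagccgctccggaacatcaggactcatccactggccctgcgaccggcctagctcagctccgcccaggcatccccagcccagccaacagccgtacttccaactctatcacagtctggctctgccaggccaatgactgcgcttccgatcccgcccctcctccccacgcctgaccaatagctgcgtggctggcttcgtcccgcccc

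The comparison of RM1536 with RM1 sets the labelled pool of clones against its parent line. The RNA sensors and Trim25 were lower in RM1536, though Ifih1 and Dhx58 missed the threshold, STING was higher, and cGAS, MAVS and the kinases did not pass the test. Of the 10 genes, 3 fell (Ddx58, Tlr3 and Trim25) and 1 rose (Tmem173) by edgeR's quasi-likelihood test with Benjamini-Hochberg adjustment over 13832 genes, where 5.64% of all genes were called, 3.54% lower and 2.10% higher. Their median log2 fold change was -0.85, beside 0.02 over all genes tested. Both RM1536 libraries lay below both RM1 libraries in 5 genes (Ddx58, Ifih1, Dhx58, Tlr3 and Trim25), an order found in 26.9% of all genes tested, and above both in 1 (Tmem173; 27.2% of all). In bulk RNA, fewer cells that express a gene and less RNA per cell cannot be told apart.

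**Figure D1:**
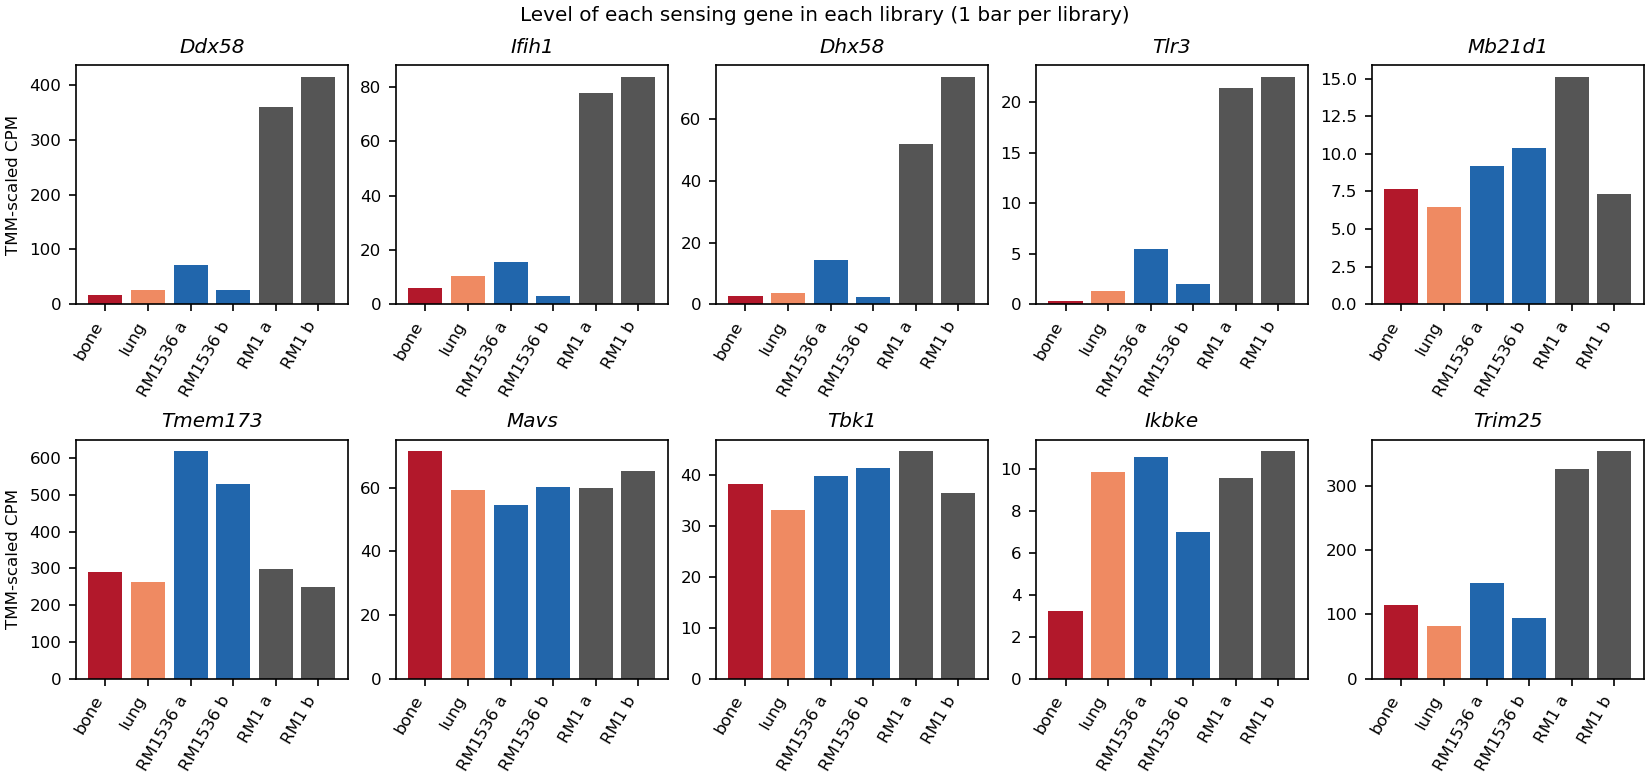
Level of each of the 10 genes in each library, as TMM-scaled CPM on a linear axis that starts at 0 and differs between panels, with 1 bar per library. Ddx58, Ifih1, Dhx58, Tlr3 and Trim25 stand highest in both RM1 libraries, Tmem173 in both RM1536 libraries.

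Ddx58 (RIG-I; chr4:40203773-40239828, minus strand) was the highest of the 4 RNA sensor genes per kb of exon in every library. It stood at 16.2 CPM in bone, 26.2 in lung, 72.1 and 25.7 in RM1536 and 360.2 and 414.7 in RM1. The RM1 libraries stood far above the other 4, and RM1536 b lay close to lung. Set against RM1, the RM1536 level was 7.93-fold lower, at -2.99 ± 0.50 on the log2 scale (SE, 2 libraries a side; edgeR adjusted p = 0.0299). Ddx58 was the 1 gene of the 10 whose call was kept under all 13 alternatives run, at log2 fold changes of -3.95 (without RM1536 a) to -2.45 (without RM1536 b).

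Ifih1 (MDA5; chr2:62595798-62646255, minus strand) stood at 6.10 CPM in bone, 10.6 in lung, 15.5 and 3.07 in RM1536 and 77.8 and 83.7 in RM1. Its log2 fold change in RM1536 against RM1 was the lowest of the 10, -3.13 ± 0.71, but it missed the threshold (adjusted p = 0.0627). The RM1536 duplicates lay 5.04-fold apart, wider than the gap between the RM1 duplicates for any of the 10. Without RM1536 a the value was -4.74, without RM1536 b -2.40, without RM1 a -3.21 and without RM1 b -3.07. A fit without an RM1536 library takes the gene's own spread from the RM1 pair alone. It cannot show whether the fall holds over the gap between the RM1536 duplicates.

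Dhx58 (LGP2; chr11:100694884-100704271, minus strand) stood at 2.81 CPM in bone, 3.63 in lung, 14.4 and 2.33 in RM1536 and 51.7 and 73.7 in RM1. The groups RM1536 and RM1 did not overlap, yet the RM1536 duplicates lay 6.16-fold apart, more than for any other of the 10. The log2 fold change was -2.92 ± 0.79 and missed the threshold (adjusted p = 0.0948). Without RM1536 a it was -4.78, without RM1536 b -2.15, without RM1 a -3.18 and without RM1 b -2.64. An antisense gene, Dhx58os, overlaps Dhx58 and had at most 5 reads in any library.

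Tlr3 (chr8:45395665-45411080, minus strand) stood at 0.307 CPM in bone, 1.34 in lung, 5.51 and 2.04 in RM1536 and 21.4 and 22.5 in RM1. The RM1 duplicates were close together, and bone was lowest, with 7 reads. Set against RM1, the RM1536 level was 5.85-fold lower (log2 -2.55 ± 0.50, adjusted p = 0.0441). The call was lost with upper quartile scaling (log2 -2.496, adjusted p = 0.0503) and without RM1 a (-2.61, 0.0712), RM1 b (-2.51, 0.0620) or RM1536 b (-2.02, 0.0724). Without RM1536 a the value was -3.46 (0.0240).

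Mb21d1 (cGAS; chr9:78430526-78443237, minus strand) did not follow the RNA sensors. It stood at 7.68 CPM in bone, 6.47 in lung, 9.17 and 10.4 in RM1536 and 15.1 and 7.33 in RM1. The RM1536 values lay between the RM1 duplicates, which were 2.06-fold apart. The log2 fold change was -0.20 ± 0.39 (adjusted p = 0.814), and 0.39 without RM1 a.

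Tmem173, the STING gene, moved the other way. It stood at 289.8 CPM in bone, 261.7 in lung, 619.3 and 528.4 in RM1536 and 296.8 and 247.9 in RM1. Both RM1536 libraries stood apart from the other 4, and bone and lung were near the RM1 level, at 106% and 96.1% of the RM1 mean. The RM1536 level was 2.11-fold that of RM1 (log2 1.08 ± 0.22, adjusted p = 0.0473). The call lay near the threshold and was lost without RM1536 a (adjusted p = 0.129), RM1536 b (0.104), RM1 a (0.119) or RM1 b (0.223), with log2 fold changes of 0.93 to 1.18.

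Mavs, the adaptor gene of RIG-I and MDA5 (chr2:131234063-131248025, plus strand), varied least of the 10. It stood at 71.5 CPM in bone, 59.3 in lung, 54.6 and 60.1 in RM1536 and 59.7 and 65.3 in RM1, a range of 1.31-fold. RM1536 and RM1 overlapped, with a log2 fold change of -0.12 ± 0.19 (adjusted p = 0.757).

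The kinase genes also overlapped between RM1536 and RM1. Tbk1 (chr10:121546455-121586787, minus strand) stood at 38.2 CPM in bone, 33.0 in lung, 39.8 and 41.3 in RM1536 and 44.6 and 36.3 in RM1, with a log2 fold change of 0.00 ± 0.21 (adjusted p = 0.998). Ikbke (chr1:131254343-131279606, minus strand) stood at 3.25 CPM in bone, 9.87 in lung, 10.6 and 6.99 in RM1536 and 9.58 and 10.9 in RM1, with -0.22 ± 0.31 (adjusted p = 0.731). Bone was the low library for Ikbke. The order of the 6 libraries from high to low was the same for Tbk1 and Mb21d1: RM1 a, RM1536 b, RM1536 a, bone, RM1 b and lung.

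Trim25 (chr11:88999376-89020293, plus strand) codes for a ubiquitin ligase known for activating RIG-I. It stood at 114 CPM in bone, 81.1 in lung, 148 and 94.0 in RM1536 and 326 and 354 in RM1. The 2 RM1 libraries stood above the other 4, as for the RNA sensors. In RM1536 it was 2.81-fold lower (log2 -1.49 ± 0.27, adjusted p = 0.0382). The call was lost without RM1536 b (log2 -1.22, adjusted p = 0.105), RM1 a (-1.58, 0.0661) or RM1 b (-1.43, 0.0699).

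The RM1536 duplicates were far apart for the same group of genes. RM1536 b was lower than RM1536 a by 2-fold or more in 4 of the 10 genes, against 6.04% of all genes tested, and higher in 0, against 4.26%. Those were Dhx58, Ifih1, Ddx58 (2.81-fold, 95% counting interval 2.58 to 3.06) and Tlr3 (2.70-fold, 1.99 to 3.70). Counting intervals here are exact and cover counting error only. In RM1, b was lower than a by 2-fold or more in 1 of the 10, Mb21d1, against 3.87% of all genes tested, and higher in 0, against 5.73%. As a share of the RM1 mean, Ddx58 stood at 18.6% in RM1536 a and 6.62% in RM1536 b, and Ifih1 at 19.2% and 3.81%. For all 5 genes with RM1536 below RM1, RM1536 a came next after both RM1 libraries. What separates the duplicates was not tested.

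**Figure D2:**
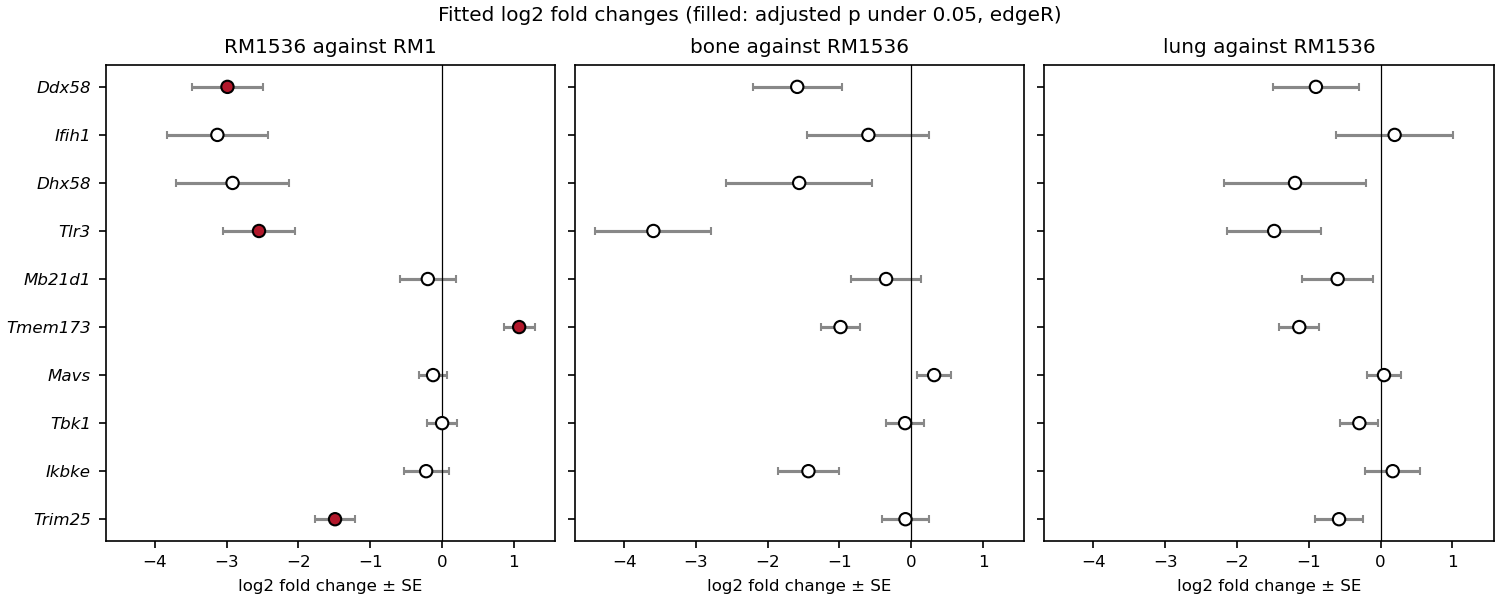
Fitted log2 fold change of each gene with its SE, in RM1536 against RM1, bone against RM1536 and lung against RM1536, on a shared axis. Filled points (Ddx58, Tlr3, Tmem173 and Trim25 in the first panel) have an adjusted p under 0.05 by edgeR, and the first panel rests on 2 libraries against 2, the others on 1 against 2.

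The comparisons of bone and of lung with RM1536 ask what differs in cells that grew in an organ from the cells injected. Each has 1 library on its side, assumed to vary like the culture duplicates, and both share the RM1536 libraries. By edgeR 0 of the 10 genes passed in either comparison, where 0.0145% of all genes passed in bone (0.00723% higher and 0.00723% lower) and 0% in lung. At an unadjusted p under 0.05 there were 4 in bone (9.92% of all genes) and 1 in lung (13.8% of all genes). DESeq2 called 1 in bone (Tlr3, adjusted p = 0.00142; 2.96% of all genes) and 1 in lung (Tmem173, 0.0233; 2.80% of all), and limma-voom 0 in both (0% of all).

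The RNA sensor genes stayed far below RM1 in both recovered libraries. Bone, lung and both RM1536 libraries all lay below both RM1 libraries in 5 of the 10 genes, against 18.3% of all genes tested. Ddx58 was at 4.19% of the RM1 mean in bone and 6.75% in lung, Ifih1 at 7.56% and 13.1%, and Dhx58 at 4.48% and 5.79%. Trim25 was at 33.7% in bone and 23.9% in lung.

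Against RM1536, the values of these genes depended on which duplicate was used. The log2 fold change of Ddx58 was -1.59 ± 0.62 in bone (adjusted p = 0.480) and -0.90 ± 0.59 in lung (0.515), and without RM1536 a it was -0.65 in bone and 0.06 in lung. For Ifih1 it was -0.60 ± 0.85 in bone (0.890) and 0.20 ± 0.81 in lung (0.931). Bone and lung lay between the RM1536 duplicates for both Ifih1 and Dhx58. Dhx58 had a log2 fold change of -1.56 ± 1.02 in bone (0.720) and -1.19 ± 0.99 in lung (0.599).

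Bone lay below both RM1536 libraries in 6 of the 10 genes (35.1% of all genes tested) and lung in 5 (39.2% of all). Tlr3 and Tmem173 were below both RM1536 libraries in bone and in lung, as were Mb21d1 and Tbk1. That order, for 4 of the 10, was found in 21.5% of all genes tested. Tlr3 had a log2 fold change of -3.59 ± 0.81 in bone (edgeR adjusted p = 0.202) and -1.48 ± 0.66 in lung (0.386). It was the 1 gene of the 10 below all 4 culture libraries in both, against 10.4% of all genes, at 1.40% of the RM1 mean in bone (7 reads) and 6.10% in lung (34 reads). Tmem173 had a log2 fold change of -0.99 ± 0.27 in bone (adjusted p = 0.295) and -1.13 ± 0.28 in lung (0.297).

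Ikbke was below both RM1536 libraries in bone, with a log2 fold change of -1.43 ± 0.42 (adjusted p = 0.322), and between them in lung, with 0.17 ± 0.38 (0.862). Mavs, at 0.32 ± 0.24 in bone (0.765) and 0.05 ± 0.24 in lung (0.944), was the 1 gene above both RM1536 libraries in bone. Trim25 had -0.08 ± 0.33 in bone (0.975) and -0.58 ± 0.34 in lung (0.472). Tbk1 and Mb21d1 had -0.09 ± 0.26 and -0.35 ± 0.49 in bone, and -0.30 ± 0.26 and -0.60 ± 0.50 in lung (adjusted p from 0.600 to 0.957).

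Bone and lung, from the same mouse, were compared as 1 library against 1, with no replicate and no test. Bone was lower by 2-fold or more in 2 of the 10 genes (8.25% of all genes tested were that much lower in bone) and higher by that much in 0 (7.81% of all). Tlr3 had a bone to lung ratio of 0.229 (95% counting interval 0.0857 to 0.525) and Ikbke of 0.329 (0.251 to 0.428). Ddx58 had 0.621 (0.545 to 0.706) and Ifih1 0.577 (0.467 to 0.711). The RNA sensor genes and Ikbke were thus lower in the bone library, though for Dhx58 (0.774, 0.554 to 1.08) the interval included 1. Trim25 had a ratio of 1.41 (1.33 to 1.497), and Mavs, Tbk1, Tmem173 and Mb21d1 lay between 1.11 and 1.21.

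To set different genes side by side, levels were divided by exon length, with all annotated exons of a gene merged (GENCODE M21). Which transcripts the cells expressed was not tested, and their length may differ from the merged length, so the order of genes is approximate. Tmem173 was the highest of the 10 per kb of exon in every library, at 106 CPM per kb in bone, 95.5 in lung, 226 and 193 in RM1536 and 108 and 90.4 in RM1. In RM1 it was followed by Trim25 (mean 59.1 CPM per kb) and Ddx58 (55.0), whose duplicates overlap, then Dhx58 (19.2) and Mavs (18.7), which overlap as well. In bone Mavs came second with 21.4 CPM per kb, while Ddx58 had 2.30, less than Tbk1 with 9.77. The gene for the adaptor MAVS lay below that for its sensor RIG-I in RM1 and above it in each of the other 4 libraries, where Mavs stood at 16.3 to 21.4 CPM per kb and Ddx58 at 2.30 to 10.2.

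**Figure D3:**
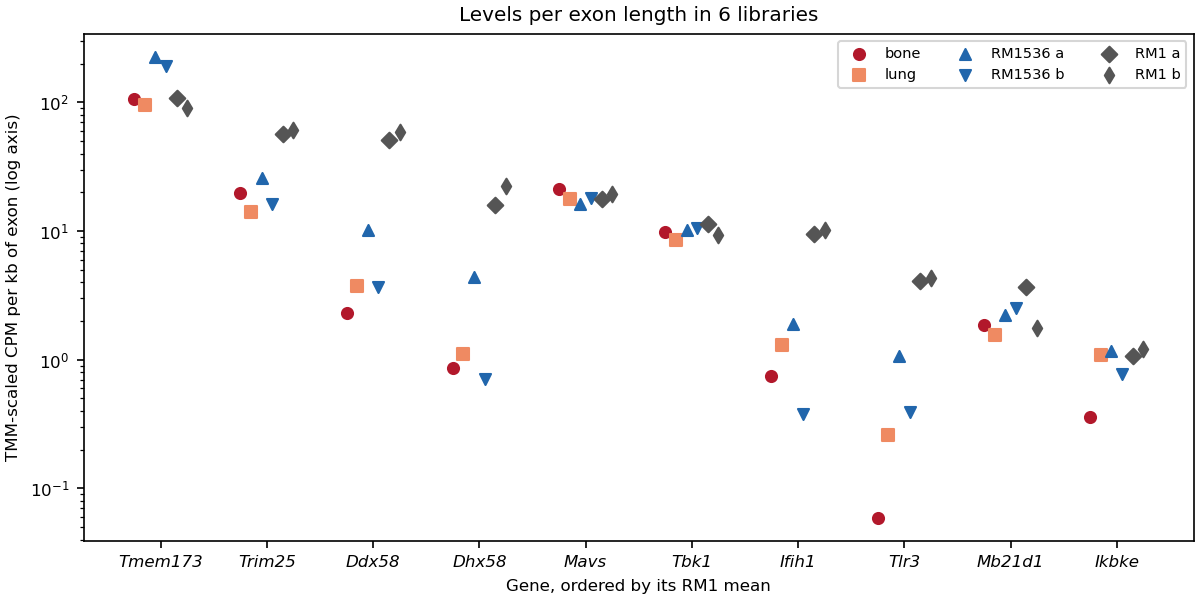
TMM-scaled CPM per kb of exon (log axis) of each gene in each library, with genes ordered by their RM1 mean and 1 point per library. Tmem173 is highest in all 6 libraries, and the points of Ddx58, Dhx58, Ifih1 and Tlr3 lie farther apart than those of Mavs and Tbk1.

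Other genes of the pathway were read from 4 lists with 65 genes in the table, 60 of them tested. In RM1536 against RM1, 7 of the 60 fell and 0 rose by edgeR, where 3.54% of all genes tested fell and 2.10% rose. Among the 7 was Dnase1l3, which passed the low-count filter through RM1 alone. DESeq2 called 21 (10.9% of all genes with an adjusted p) and limma-voom 12 (6.20% of all) in either direction. At an unadjusted p under 0.05 by edgeR there were 32 lower (12.5% of all) and 1 higher (10.4% of all). The fitted value was below 0 for 51 of the 60, against 48.6% of all genes tested. The 32 and the 51 both take in Dnase1l3 and Il6. Il6 had 3 reads in bone, 1 in lung, 1 and 1 in RM1536 and 11 and 29 in RM1. It too passed the low-count filter through RM1 alone, so the filter kept both genes only for being high in RM1.

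Among 16 other sensing receptors and adaptors (median log2 fold change -0.53), Ticam1, the adaptor gene of TLR3 also called TRIF, was 2.84-fold lower (adjusted p = 0.0451), with 27.5 and 18.5 CPM in RM1536 against 54.4 and 76.0 in RM1. On the log2 scale Dhx9, an RNA helicase, was at 0.44 ± 0.34 (adjusted p = 0.495), Tbkbp1, a TBK1-binding protein, -0.51 ± 0.20 (0.205), and Ifi204, a DNA-binding interferon-induced protein, -3.02 ± 0.62 (0.0501). The adaptor gene of TLR3 thus passed the test, and that of the helicases, Mavs, did not; the difference between them was not tested. Tlr7 and Tlr9, endosomal receptors of single-stranded RNA and of DNA, were at most 0.259 CPM in any library and were not tested.

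Of 13 downstream factors and cytokines (median -1.27), 1 fell: Irf5, an interferon regulatory factor (-5.51 ± 0.79, adjusted p = 0.0206). Irf7, the amplifier of interferon production, had -4.31 ± 0.96 and missed the threshold (0.0605), at 26.3 and 3.27 CPM in RM1536 and 211 and 372 in RM1. The NF-kappaB genes Nfkb1 (-0.43 ± 0.19, 0.246) and Rela (-0.22 ± 0.22, 0.606) did not pass. The median of this list includes Il6, which passed the low-count filter through RM1 alone. Irf3, the direct substrate of TBK1, was named after its values were seen and had -0.91 ± 0.20 (0.0613). Of the interferon genes themselves, also named so, Ifnb1 had 0 reads in bone and lung, 1 and 0 in RM1536 and 5 and 6 in RM1, and Ifna4 had 0 in bone, lung and RM1536 and 1 and 2 in RM1. A count of 0 allows up to 0.132 CPM in bone and 0.118 in lung.

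Of 18 ubiquitin ligases and inhibitors of the sensors (median -0.79), 2 fell. Nlrc5, the activator of MHC class I genes, was at -3.84 ± 0.49 on the log2 scale (adjusted p = 0.0165), and Nlrc3, known for restraining STING, -2.07 ± 0.28 (0.0182). Nlrc3 stood at 3.29 CPM in bone, 6.79 in lung, 3.74 and 3.88 in RM1536 and 15.2 and 16.7 in RM1, the opposite order to Tmem173 between RM1536 and RM1. The antiviral zinc finger gene Zc3hav1 had -0.74 ± 0.22 (0.122), Tax1bp1 -0.27 ± 0.25 (0.571) and Otud5 -0.40 ± 0.20 (0.306).

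Of 13 nucleic acid clearance and editing genes (median -0.33), 3 fell. Adar, which edits double-stranded RNA so that MDA5 does not respond to it, had -1.62 ± 0.29 (adjusted p = 0.0355). Eif2ak2, the double-stranded RNA kinase PKR, had -1.82 ± 0.35 (0.0415). Dnase1l3, a DNase, had 0 reads over the RM1536 libraries against 75 over RM1, at least 24.0-fold lower with 3 counts over the group as the limit (adjusted p = 0.0319). It also had 0 reads in bone and lung, so it passed the low-count filter through RM1 alone. The stricter filter left it out of the fit. Samhd1, which breaks down deoxynucleotides, had -0.58 ± 0.22 (0.186). In bone and in lung against RM1536, 0 of the 60 passed by edgeR and 0 by limma-voom. DESeq2 called 2 in bone (2.96% of all genes with an adjusted p) and 1 in lung (2.80% of all). The unadjusted p by edgeR was under 0.05 for 10 of the 60 in bone (9.92% of all genes) and 10 in lung (13.8% of all), so that the lung share lay near that of all genes.

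Nlrc5 kept its call under all 12 alternatives fixed for it. Without RM1536 b the calls of Irf5, Ticam1, Nlrc3, Adar, Eif2ak2 and Dnase1l3 were lost; without RM1536 a those of Ticam1, Nlrc3 and Dnase1l3; without RM1 a those of Adar and Eif2ak2; and without RM1 b those of Ticam1, Adar and Dnase1l3 (adjusted p of at most 0.157). Upper quartile scaling also ended the call of Ticam1 (adjusted p = 0.0527).

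**Figure D4:**
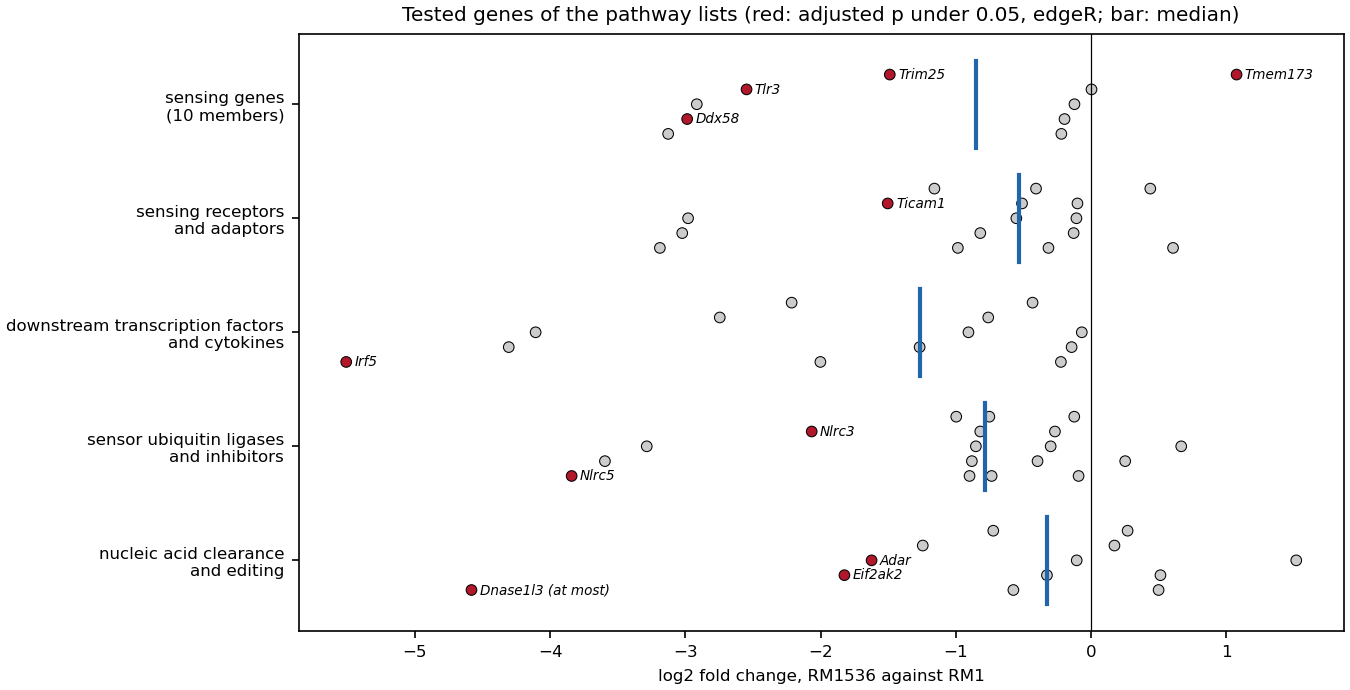
Log2 fold change in RM1536 against RM1 of each tested gene of the 10 and of the 4 other pathway lists, with the median of each list as a bar and called genes in red. Dnase1l3 is drawn at its bound. The called genes lie left of 0 except Tmem173.

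Genes with the pattern most like 4 of the sensing genes were taken by Pearson's r of log2(CPM + 0.5) over the 6 libraries, among 9879 genes with a mean of at least 5 CPM. The 6 points share groups, so r is a description with no p. A high r says nothing of the size of a change. For Ddx58 they were Oas3 (r = 0.999), Znfx1 (0.998) and Oas1a (0.998), of which Oas3 and Oas1a belong to the oligoadenylate synthetases that respond to double-stranded RNA. Oas3 stood at 1.23 CPM in bone, 3.87 in lung, 21.0 and 2.72 in RM1536 and 221 and 333 in RM1. For Tlr3 they were Decr1 (0.999), BC005537 (0.997) and Nqo2 (0.996), for Mb21d1 Fbxo45 (0.968), Ube2n (0.967) and Prelid1 (0.967). For Tmem173 they were Penk (0.995), Kif18a (0.987) and Brcc3 (0.987). Some of these genes changed little: BC005537 ranged from 175 to 258 CPM, Ube2n from 157 to 186 and Brcc3 from 25.9 to 30.2. Penk, the proenkephalin gene, stood at 1.45 CPM in bone, 0.829 in lung, 20.1 and 13.5 in RM1536 and 1.14 and 0.319 in RM1, high in both RM1536 libraries as Tmem173 was.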

How the data were processed

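Libraries were prepared from total RNA by NEBNext Ultra chemistry and read on a HiSeq2500, per the labels. The deposited values are raw read counts per gene symbol, and per the submitters' processing notes TopHat2 2.1.10, HTSeq, edgeR and GRCm38 were used, with no role stated. The strand setting is not given in the sources used here, so reads of opposite-strand genes that overlap Dhx58, Tlr3, Mb21d1 and Ikbke cannot be told apart. Of those counted, Dhx58os had at most 5 reads in any library. Gm8093, a pseudogene that overlaps Mb21d1, and Gm28913, which overlaps Ikbke, had at most 1 each. Counts under no gene name, 0.00626% to 0.00830% of each library, were left out. Counts were fitted in R 4.3.3 with edgeR 4.0.16 (TMM, filterByExpr, quasi-likelihood, 4 groups in 1 model, 2 residual degrees of freedom), with a call at an adjusted p under 0.05. The steps were also run on simulated counts drawn with the spread usual at a gene's level. That run did not cover genes whose duplicates lie far apart, such as Ifih1 and Dhx58. The SE is the log2 fold change over the square root of F. DESeq2 1.42.0, limma-voom 3.58.1, other scalings and filters, a replicate block and leaving out each culture library were alternatives. CPM uses TMM-scaled totals; 3 counts equal 0.0971 to 0.132 CPM. Folds over 2 between single libraries used CPM + 0.1 for the share of all genes.

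The duplicates differed beyond counting error (chi-square per degree of freedom 91.1 in RM1536 and 89.9 in RM1). The 10 genes and the lists were chosen with earlier results of these data known. Named were the 10 genes, the called genes of each list, the 3 with the highest mean CPM of each list and the 3 most alike in pattern for 4 genes. Trex1, Cd3e and Cd8a of the lists were not analysed here, and 1 further listed gene is not reported here and was left out of the list counts. Comparisons against RM1536 share its libraries.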

Additional observations from a re-analysis of the deposited data

How the results depend on the processing

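Of the 10 genes, 4 were called in RM1536 against RM1. The count was 6 with DESeq2, limma-voom or no low-count filter, 3 with upper quartile scaling, 1 with the replicate block and 1 to 5 when 1 culture library was left out (1 without RM1 a or RM1 b, 2 without RM1536 b, 5 without RM1536 a). In bone against RM1536 it was 0, but 1 with DESeq2 and 4 with no low-count filter; in lung against RM1536 it was 0, but 1 with DESeq2 and 2 with no low-count filter; both stayed at 0 in every fit that left out a library. Over all genes, 780 were called in RM1536 against RM1, 1477 with DESeq2, 2394 with no low-count filter, 295 with the replicate block and from 196 (without RM1536 b) to 513 (without RM1 b) when 1 culture library was left out. In bone the 2 called became 376 with DESeq2 and 859 with no low-count filter, and in lung the 0 became 356 and 1299. Fits without an RM1536 library take a gene's own spread from the RM1 pair alone, so calls gained there leave out the gap between the RM1536 duplicates. The letters a and b are not stated to pair cultures, and deviations of same-letter libraries correlated at -0.44. With the letters crossed (chosen after seeing the data), 6 of the 10 and 3163 genes were called.

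Signs turned for values near 0 or tied to 1 library, and the cause was not tested. In RM1536 against RM1, Tbk1 was at -0.0213 with DESeq2, -0.0153 with RLE factors, -0.0173 with no low-count filter, -0.0120 with the stricter filter, -0.00915 with the 4 culture libraries alone, -0.00270 with the replicate block and -0.00317 with its crossed form. With 1 culture library left out, Tbk1 ranged from -0.140 to 0.127, Mb21d1 from -0.627 to 0.387 and Ikbke from -0.579 to 0.0267. In bone against RM1536 the same range was -1.34 to 0.995 for Ifih1, -2.35 to 0.277 for Dhx58 and -0.372 to 0.291 for Trim25, with the top value without RM1536 a. In lung it was -1.44 to 0.0576 for Ddx58, -0.528 to 1.81 for Ifih1, -1.96 to 0.669 for Dhx58 and -0.0789 to 0.527 for Ikbke, with the top value without RM1536 a. With the replicate block, Tlr3 (-2.71, adjusted p = 0.0644), Tmem173 (1.06, 0.128) and Trim25 (-1.54, 0.0832) were not called, nor were Ticam1 (adjusted p = 0.105), Nlrc3 (0.0644), Adar (0.0729), Eif2ak2 (0.0549), Dnase1l3 (0.0527) and Laptm5 (0.0822); Irf5 and Nlrc5 kept their calls. Depth limits Tlr3 in bone, where 7 reads give 0.124 to 0.633 CPM.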

Other observations

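Among genes of the lists that the text has not yet described, several interferon-induced ones also separated the RM1536 duplicates; they were picked after their values were seen. Zbp1, a sensor of Z-form nucleic acid, stood at 0.22 CPM in bone, 4.03 in lung, 9.77 and 1.04 in RM1536 and 22.2 and 62.5 in RM1 (RM1536 against RM1 by edgeR: log2 fold change -2.98 ± 1.01, adjusted p = 0.157). Usp18, which removes ISG15 and restrains interferon receptor signalling, stood at 0.615 CPM in bone, 3.12 in lung, 27.2 and 1.65 in RM1536 and 116 and 164 in RM1 (-3.29 ± 1.11, 0.155). Cxcl10, a chemokine gene, stood at 2.33 CPM in bone, 6.39 in lung, 20.2 and 1.84 in RM1536 and 80.9 and 66.6 in RM1 (-2.75 ± 0.96, 0.165). For all of them, lung lay above bone and RM1536 a above RM1536 b.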
